A study of Mus musculus with 4 samples.

Results

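The unfolded protein response, the ATF4 branch of the integrated stress response and the cytosolic aminoacyl-tRNA synthetases were examined in sorted kidney tubules of mice on a low or a high magnesium diet. The members were 39 genes taken from a list of symbols and matched to the gene symbols of the array platform, and all 39 were measured, out of 21713 named genes on the array. They fell into 16 genes of endoplasmic reticulum (ER) folding, ER-associated degradation (ERAD) and stress sensing, 11 genes of the ATF4 branch and 12 tRNA synthetases. Each gene was read by its brightest probe. Synonyms were followed, so that Mars stands for the symbol Mars1.

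All mice were of the B6D2F2 background and carried an eGFP transgene under the parvalbumin (PV) promoter, which marks the distal convoluted tubule, where magnesium reabsorption is adjusted to need. Tubules were taken at an age of 6 to 8 weeks, after 15 days on a diet with 0.02% (low) or 0.48% (high) magnesium by weight, and both diet groups carried the same transgene. RNA of 4000 sorted fluorescent tubules was pooled per sample and double-amplified as cRNA. The 8 samples were hybridised as 4 littermate pairs, with both diets of a pair on 1 array in different dyes. The pairs are named after their samples, H for high and L for low diet. The low-diet sample carried Cy5 in H1/L1 and H7/L7, and Cy3 in H3/L2 and H8/L8. Where 4 ratios are listed without names, H1/L1 comes first, followed by H3/L2 and H7/L7, with H8/L8 last. The labels do not say how many mice went into a sample, so the p-values refer to these 4 pairs only. They rest on the spread left after fitting a dye term, moderated by that of other probes. The SD of the 4 ratios, dye effect included, is a different measure.

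When the ER is loaded with unfolded protein, the membrane sensors PERK (gene Eif2ak3), IRE1 (gene Ern1) and ATF6 raise chaperones, oxidoreductases and the machinery that removes misfolded protein. PERK, like the amino acid sensor GCN2, also phosphorylates the translation factor eIF2, which lowers protein synthesis in general while the mRNA of the transcription factor ATF4 is translated more. ATF4 raises genes of amino acid synthesis and transport, many tRNA synthetases, and feedback regulators such as Trib3 and Ppp1r15a. ATF4 and the sensors are controlled largely after transcription, so the mRNA of their targets is the usual readout of the pathways on an array.

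Promoter elements through which ER stress factors and ATF4 are known to act are shown first. The groups themselves were fixed by symbol, and only some of their genes carry an element. In mouse promoter sequences of RefSeq (build GRCm38.p6), 33 of the 39 members had a window from 250 bases before to 50 bases after the transcription start. The ER stress response element, searched on both strands as CCAAT, any 9 bases and CCACG, was present for 5 of the 14 ER members with a window, 0 of 11 in the ATF4 branch and 0 of 8 tRNA synthetases, and for 37 of all 27025 genes in the table (0.137%). Its occurrences are printed along the motif with the element in capitals. Those of Calr and Creld2 lie on the strand opposite to the gene.
Canx: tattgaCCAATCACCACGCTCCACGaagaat
Pdia6: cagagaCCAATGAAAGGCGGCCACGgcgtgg
Calr: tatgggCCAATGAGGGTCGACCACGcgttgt
Creld2: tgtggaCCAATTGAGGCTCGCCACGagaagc
Syvn1: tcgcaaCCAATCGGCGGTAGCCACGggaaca

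The core of the ATF4 element, searched as TGATGNAA on both strands, was present for 4 of 11 genes of the ATF4 branch, 5 of 8 tRNA synthetases with a window and 1 of 14 ER genes, and for 4.51% of all genes in the table. The matches are printed along the motif with its letters in capitals, so that the variable base between TGATG and AA can be compared. Aars held 2 matches with different variable bases, 1 before and 1 after the start, and both are printed. A further core, TGACGTG, to which XBP1 and ATF6 can bind, was found for 1 member, Eprs, and for 2.22% of all genes. A match is a string of letters and was not tested for binding.
Asns: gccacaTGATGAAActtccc
Atf3: acttggTGATGCAAgtgcga
Chac1: caggagTGATGCAAcggcag
Trib3: cccggcTGATGTAAacctga
Herpud1: gcgggcTGATGCAAcccgcc
Aars, before the start: ctcggcTGATGCAAtgctca
Aars, after the start: gcgctcTGATGAAAagtgac
Gars: ggtgcaTGATGAAAtagcgc
Iars: tggaggTGATGCAAtactga
Tars: accagcTGATGCAAcgggac
Yars: ctcagcTGATGCAAcccgac

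For the members with such an element that differed between the diets, the 250 bases before the start are given in the direction of the gene, with the element in capitals. That of Canx lies at chr11:50325674-50325923 on the minus strand, that of Asns at chr6:7693210-7693459 on the minus strand and that of Tars at chr15:11399659-11399908 on the minus strand. In Asns and Tars the ATF4 core sits within 30 bases of the start. In Tars it is read on the opposite strand. Psph, the member with the largest ratio, had none of the 3 motifs in its window, and neither had Xbp1. The start used for Psph lies inside its annotated gene, which reaches chr5:129787443, while the 250 bases span chr5:129787254-129787503. Most of the sequence before the annotated gene was thus not searched for Psph. The starts used for Aars, Yars and Eprs also lie inside their annotated genes.
Canx: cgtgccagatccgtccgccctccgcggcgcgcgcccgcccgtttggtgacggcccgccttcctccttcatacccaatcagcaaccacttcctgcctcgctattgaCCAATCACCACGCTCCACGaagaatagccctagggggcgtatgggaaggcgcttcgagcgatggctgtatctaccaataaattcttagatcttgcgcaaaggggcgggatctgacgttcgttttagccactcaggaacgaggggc
Asns: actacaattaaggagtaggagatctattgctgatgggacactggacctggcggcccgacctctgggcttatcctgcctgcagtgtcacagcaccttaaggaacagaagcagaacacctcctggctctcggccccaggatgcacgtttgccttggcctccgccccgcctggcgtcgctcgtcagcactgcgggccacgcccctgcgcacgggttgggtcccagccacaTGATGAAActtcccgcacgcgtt
Tars: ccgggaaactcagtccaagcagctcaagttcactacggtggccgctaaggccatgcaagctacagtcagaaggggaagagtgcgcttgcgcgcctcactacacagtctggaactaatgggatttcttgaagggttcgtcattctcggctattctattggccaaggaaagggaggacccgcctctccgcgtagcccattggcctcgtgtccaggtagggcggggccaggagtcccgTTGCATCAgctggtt

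Ratios are given as log2 of low over high magnesium diet, so that values above 0 stand for more signal on the low diet, and they run opposite to the authors' deposited table. Across the 4 arrays, 65.5% to 97.4% of the probes were above background in the low-diet sample and 85.1% to 96.2% in the high-diet sample. These shares followed the dye, at 92.6% to 97.4% in Cy5 and 65.5% to 85.7% in Cy3. Of the members, 38 of 39 were above background in all 8 samples, the exception being Yars in 2 low-diet samples, and 0 had a saturated spot. The labelled cell type was checked with 10 markers of the distal convoluted tubule and 12 of the proximal tubule, all of them above background in both diets. The summed normalized intensity of the proximal tubule markers was 3643 to 4903 in the low-diet and 4528 to 11099 in the high-diet samples, with 2 of the 12 called lower and list medians of -1.11, -0.90, -0.17 and -0.25 in the pairs. That of the distal convoluted tubule markers was 101758 to 130137 against 58489 to 109062, with 5 of the 10 called higher, among them Pvalb, whose promoter drives the reporter. Of 5 measured markers of the thick ascending limb, the segment before it, 2 were called higher and 1 lower, with sums of 65195 to 99242 against 25538 to 53743. Principal cell markers, 5 measured, were well above the proximal ones, with sums of 18956 to 51905 against 34044 to 46560 and 1 called lower. Within each diet their sums were higher in the samples that carried Cy5. The part of this cell composition in the ratios of the members was not tested, and in such pooled tubules fewer cells of a type and less RNA per cell cannot be told apart.

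Of the 39 members, 5 were higher on the low-magnesium diet and 0 lower by limma at a Benjamini-Hochberg adjusted p under 0.05. They were the phosphatase gene Psph and the asparagine synthetase gene Asns in the ATF4 branch, Xbp1 and the chaperone gene Canx in the ER group, and the threonyl-tRNA synthetase gene Tars. The share of all named genes called was 7.82% in either direction, 4.88% higher and 2.95% lower. The members stood at 12.8% called, all of them higher, which is 5 genes, and the difference from the shares of all named genes was not tested. Their median log2 ratio of 0.0012 was like the 0.0017 of all named genes. Their median absolute log2 ratio was 0.097 against 0.052, and 35.9% against 26.7% had an unadjusted p under 0.05 in limma. In all 8 samples, 38 of 39 members were above background, against 16084 of 21713 named genes, so these comparisons set genes of unlike brightness side by side. With the dimmest 50% of probes left out, 6 of 36 members were called, against 14.5% of all named genes. The sign was the same in all 4 pairs for 11 members (28.2%), against 27.6% of all named genes. Of the 34 members that did not pass, 32 had a log2 ratio within 0.25 of 0.

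**Figure D1:**
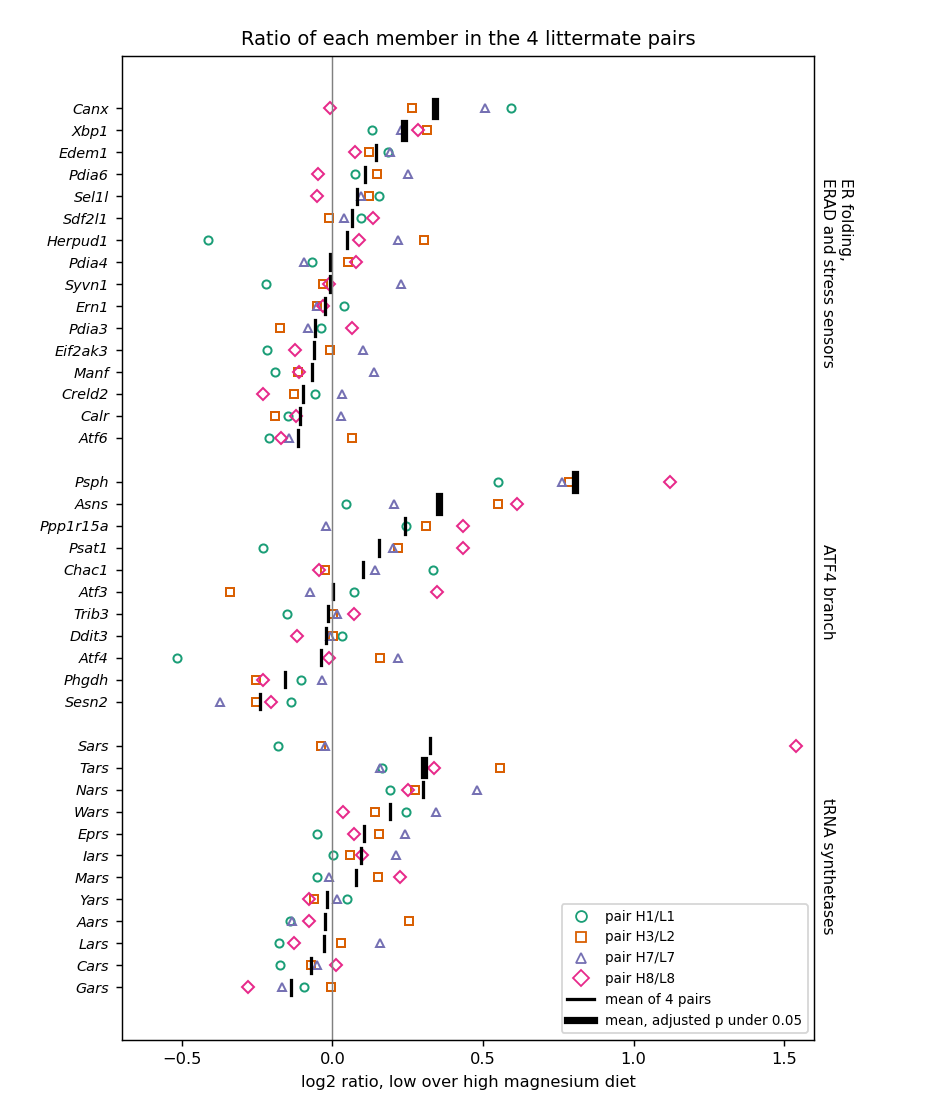
Log2 ratio of low over high magnesium diet (x axis) for each of the 39 members (y axis), grouped by branch and ordered by mean; open symbols are the 4 littermate pairs, thin black bars the mean of the 4 pairs and thick bars the mean of members with an adjusted p under 0.05. Psph has the highest mean, 0.80, with all 4 pairs above 0.5, and the mean of Sars is carried by a single pair at 1.54.

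The sensors of the unfolded protein response did not pass, while one of the factors they act on did. Xbp1 encodes the transcription factor whose mRNA is spliced by IRE1. Its log2 ratios were 0.13, 0.32, 0.23 and 0.28, all above 0 and close to each other. Xbp1 thus rose by 0.24 ± 0.081 (SD, n = 4; 1.18-fold; limma, adjusted p = 0.0290). It did not pass without the dye term (adjusted p = 0.0591), with median centring (0.0713) or with plain background subtraction (0.113). Spliced and unspliced Xbp1 mRNA cannot be told apart from this value.

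Atf6, which encodes the sensor cleaved in the Golgi, had ratios of -0.21, 0.066, -0.15 and -0.17, with a mean of -0.12 (limma, adjusted p = 0.269) and a second, dimmer probe at 0.021. Ern1 had 4 probes with log2 ratios between -0.064 and 0.033, the brightest at 0.038, -0.051, -0.050 and -0.033 in the pairs. Their mean was -0.024, with a 95% interval of the fit from -0.10 to 0.055. Eif2ak3 had a log2 ratio of -0.063, with an interval from -0.22 to 0.098. The probes of Atf6 and Ern1 differed in sign but not in call, and each ratio was small beside that of Psph. The probes above 0 were dim, at a mean log2 intensity of 6.56 for Atf6 and 6.91 for Ern1, so their signs say little. That of Atf6 was above background in 3 of the low-diet samples.

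Among the folding genes, Canx rose and its partner Calr did not. Canx encodes calnexin, the membrane-bound lectin chaperone of newly made glycoproteins, and Calr encodes calreticulin, the soluble chaperone of the same cycle. The ratios of Canx were 0.59 in H1/L1 and 0.51 in H7/L7, where the low-diet sample carried Cy5, against 0.26 in H3/L2 and -0.0068 in H8/L8, where it carried Cy3. H8/L8 showed no rise, and the values followed the dye orientation (limma, unadjusted p of the dye term = 0.0122). The fit with a dye term gave 0.34 ± 0.27 (SD, n = 4; 1.26-fold; adjusted p = 0.0398), and without a dye term Canx did not pass (adjusted p = 0.191).

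The log2 ratios of Calr were -0.15, -0.19, 0.027 and -0.12, below 0 in 3 of 4 pairs. Their mean was -0.11 ± 0.094 (SD, n = 4; limma, adjusted p = 0.228). The protein disulfide isomerase genes Pdia3, Pdia4 and Pdia6 had log2 ratios of -0.057, -0.0083 and 0.11. Sdf2l1, Creld2 and Manf encode small ER proteins induced by ER stress, and they lay at 0.064, -0.097 and -0.069. None of these 6 genes passed in limma (adjusted p between 0.205 and 0.912), and 1 of them, Creld2, had an unadjusted p under 0.05. Of the 8 folding genes, 1 was called and the median was -0.033.

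In ERAD, Edem1 encodes a lectin that hands misfolded glycoproteins to degradation, and Syvn1 and Sel1l encode the ubiquitin ligase and its adaptor in the ER membrane. Edem1 was above 0 in all 4 pairs, with ratios of 0.18, 0.12, 0.19 and 0.076, and its mean of 0.14 ± 0.054 (SD, n = 4) missed the threshold (limma, adjusted p = 0.0597). Sel1l had a log2 ratio of 0.080 and Syvn1 of -0.0094. Herpud1, a membrane protein of this complex, had -0.41 in H1/L1 against 0.30, 0.22 and 0.086 in the other pairs, so that its mean of 0.048 ± 0.32 covers both directions.

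The ATF4 branch held the member with the largest ratio beside regulators that did not pass. Psph encodes phosphoserine phosphatase, the last enzyme of serine synthesis. On the normalized log2 scale its level in the high-diet sample was 8.28, 8.06, 8.23 and 8.39. In the low-diet samples of the same pairs it was 8.83, 8.84, 8.99 and 9.51, so that the 4 low-diet samples lay above the 4 high-diet samples, although levels of different arrays are not strictly comparable. The log2 ratios were 0.55, 0.79, 0.76 and 1.12, and Psph rose by 0.80 ± 0.24 (SD, n = 4; 1.75-fold; limma, adjusted p = 0.0162).

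A second, dimmer Psph probe was at 0.47, 0.72, 0.23 and 0.80 in the same pairs, with a mean of 0.55 ± 0.26 (SD, n = 4; 1.47-fold; limma, adjusted p = 0.0163). Both probes of the gene thus showed the rise in each pair. In the authors' deposited table the log2 value of high against low diet for Psph was -0.89 and its p-value was 0.0550. Of the 39 members, the authors' deposited table gave a p under 0.05 to 0 and a p of exactly 1 to 34. Over all its 39429 probes 287 had a p under 0.05, and at so low a share 0 of 39 does not set the members apart.

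The levels of the other called members are set side by side by their range over the 4 samples of a diet, on the normalized log2 scale. Xbp1 lay between 11.17 and 11.72 on the low and between 10.86 and 11.44 on the high diet. Asns lay between 7.37 and 7.97 against 7.02 and 7.76, and Canx between 11.44 and 11.60 against 10.97 and 11.50. These 3 overlapped between the diets, so their calls rest on the ratios within pairs. Tars lay between 10.15 and 10.48 against 9.59 and 10.14, with almost no gap.

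**Figure D2:**
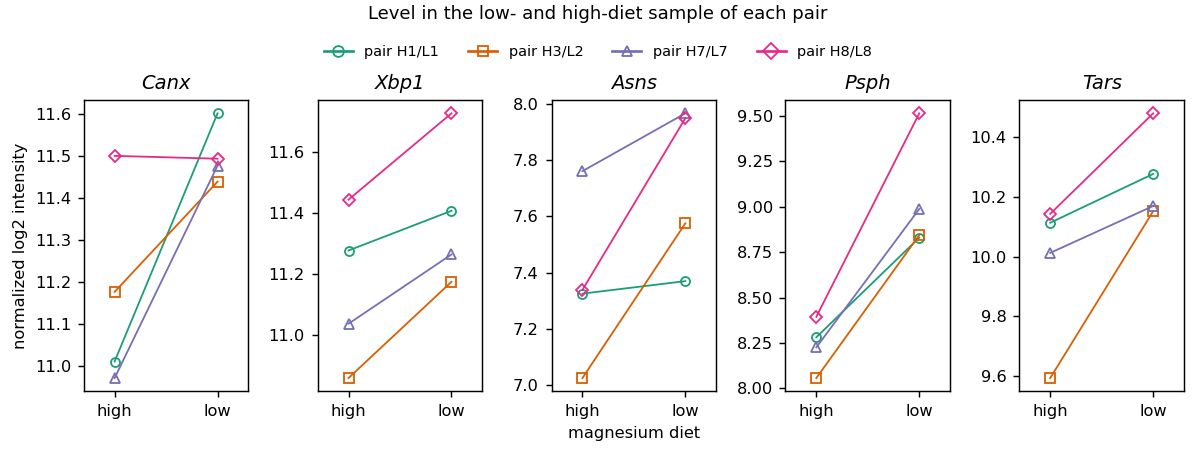
Normalized log2 intensity (y axis, a separate scale for each gene) in the high-diet and the low-diet sample (x axis) of each littermate pair for the 5 members that passed; a line joins the samples of 1 array. Psph rises in every pair, from 8.06 to 8.39 on the high diet to 8.83 to 9.51 on the low diet, whereas Canx is flat in H8/L8.

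The enzymes that act before Psph in serine synthesis did not pass the threshold. Phgdh encodes the dehydrogenase of the first step, and its brightest probe was below 0 in all 4 pairs, at -0.11, -0.26, -0.036 and -0.23. The mean was -0.16 ± 0.10 (SD, n = 4; limma, adjusted p = 0.0555). Its other 4 probes had log2 ratios from -0.18 to 0.12, so that the direction of Phgdh was not settled. Psat1 encodes the aminotransferase of the second step, and its ratios of -0.23, 0.22, 0.20 and 0.43 gave a mean of 0.15 ± 0.28 (limma, adjusted p = 0.390). A dimmer Psat1 probe was above 0 in all 4 pairs, at 0.10, 0.11, 0.035 and 0.090, with a mean of 0.084 (limma, unadjusted p = 0.0357, adjusted p = 0.191). Differences between these genes were not tested.

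**Figure D3:**
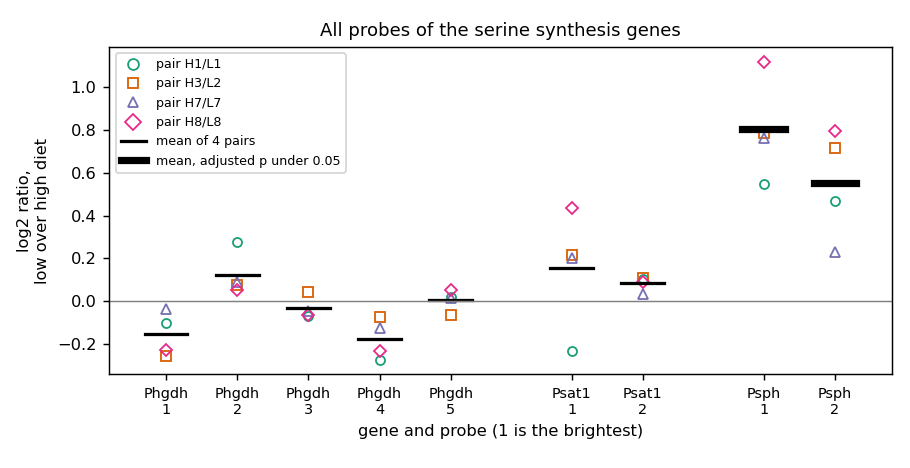
Log2 ratio of low over high magnesium diet (y axis) for every probe of Phgdh, Psat1 and Psph (x axis, numbered from the brightest), with open symbols for the 4 pairs and bars for the mean, thick where the adjusted p was under 0.05. Both Psph probes lie above 0 in all pairs, at means of 0.80 and 0.55, while the 5 Phgdh probes spread from -0.18 to 0.12.

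Asns encodes the enzyme that makes asparagine from aspartate and glutamine, and it is a standard ATF4 target. Its log2 ratios were 0.044 in H1/L1 and 0.21 in H7/L7 against 0.55 in H3/L2 and 0.61 in H8/L8. All 4 were above 0, but they followed the dye orientation, in the direction opposite to Canx (limma, unadjusted p of the dye term = 0.00246). Asns rose by 0.35 ± 0.27 (SD, n = 4; 1.28-fold; limma, adjusted p = 0.0212), and it did not pass without the dye term (adjusted p = 0.181).

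None of the 5 regulators of the branch passed, and of these Ppp1r15a, described below, had the largest ratio. Atf4 had log2 ratios of -0.52, 0.16, 0.22 and -0.012, with H1/L1 apart from the others, and a mean of -0.038 ± 0.33 (SD, n = 4; limma, adjusted p = 0.914). Its second probe was at -0.021. Ddit3 encodes CHOP, the factor linked to cell death under lasting ER stress, and its ratios were 0.032, 0.00069, -0.0072 and -0.12. The 95% interval of the fit for Ddit3 ran from -0.11 to 0.064, narrower than that of Atf4, which ran from -0.37 to 0.29. The Ddit3 probe was dim, however, at a mean log2 intensity of 6.98 against 11.02 for Atf4. It dropped out when the dimmest probes were left out, so its narrow interval cannot show that a rise was absent.

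Trib3, a pseudokinase that feeds back on ATF4, had a log2 ratio of -0.016 with an interval from -0.12 to 0.087. Atf3, a stress-induced repressor, had ratios between -0.34 and 0.35 and a mean of 0.0012. Chac1, which degrades glutathione, had a log2 ratio of 0.10 with an interval from -0.0066 to 0.21. None of the 3 passed, and the interval of Chac1 left out ratios as high as that of Asns. That of Trib3 did so too, but the Trib3 probe was dim, at a mean log2 intensity of 6.70. It was among the dimmest 50% of probes, so its narrow interval cannot show that a rise was absent.

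Ppp1r15a and Sesn2 lay nearer to the threshold, in opposite directions. Ppp1r15a encodes GADD34, which recruits the phosphatase that reverses eIF2 phosphorylation, and had ratios of 0.24, 0.31, -0.020 and 0.43 with a mean of 0.24 ± 0.19 (SD, n = 4; limma, adjusted p = 0.0827). Sesn2 encodes a leucine sensor that restrains mTORC1, and its ratios of -0.14, -0.25, -0.37 and -0.20 were below 0 in all 4 pairs. Its mean was -0.24 ± 0.10 (SD, n = 4; limma, adjusted p = 0.0626). In the 11 genes of the branch, 2 rose, 0 fell and the median log2 ratio was 0.0012.

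The tRNA synthetases, which load amino acids onto their tRNAs, had a median log2 ratio of 0.086, with 1 of 12 called. The median over the 12 genes was -0.050, 0.10, 0.086 and 0.054, so it was not above 0 in every pair. Tars had ratios of 0.16, 0.56, 0.16 and 0.34, all above 0 and higher where the low-diet sample carried Cy3 (limma, unadjusted p of the dye term = 0.0261). It rose by 0.30 ± 0.19 (SD, n = 4; 1.23-fold; limma, adjusted p = 0.0356), and it did not pass without the dye term (adjusted p = 0.129).

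Nars, for asparagine, and Wars, for tryptophan, were also above 0 in all 4 pairs but missed the threshold. Nars had ratios of 0.19, 0.27, 0.48 and 0.25 and a mean of 0.30 ± 0.12 (SD, n = 4; limma, adjusted p = 0.0525). Wars had a mean of 0.19 ± 0.13 (SD, n = 4; limma, adjusted p = 0.0566), with a dimmer probe at 0.049. Sars, for serine, had the highest mean of the group at 0.32 ± 0.81 (SD, n = 4; adjusted p = 0.573), and this came from 1.54 in H8/L8 against -0.18, -0.038 and -0.026 in the other pairs. Without H8/L8 the log2 ratio of Sars was -0.070.

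The other synthetase genes lay between -0.14 for Gars and 0.10 for Eprs. Gars, for glycine, was below 0 in all 4 pairs with a 95% interval of the fit from -0.28 to 0.0033. Eprs joins the glutamyl and prolyl activities in 1 protein, and its interval ran from -0.043 to 0.25. Aars, for alanine, had ratios of -0.14, 0.25, -0.13 and -0.078 at its brightest probe, above 0 in H3/L2 alone. Its 3 probes had means of -0.025, -0.051 and 0.074, which differed in sign but not in call. Cars, Iars, Lars, Mars and Yars had log2 ratios of -0.072, 0.093, -0.030, 0.079 and -0.018. Of the 5 synthetase genes with an ATF4 core in their promoter window, 1 was called, Tars, beside 1 of all 12 synthetases and 7.82% of all named genes. A window was present for 8 of the 12, and a link between the element and the call was not tested.

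Other genes of the same pathways changed in both directions, at a rate between 6.25% and 25.0% of each list against 7.82% of all named genes. Among 23 further ER chaperones, oxidoreductases and translocon genes, 0 rose and 2 fell, with a median log2 ratio of 0.022. Hspa5, which encodes BiP, the main ER chaperone, had ratios of -0.25, 0.16, -0.26 and 0.056, with signs that followed the dye orientation and a mean of -0.073 (limma, adjusted p = 0.285). Fkbp2, a prolyl isomerase of the ER, fell by 0.26 on the log2 scale (SD 0.092, n = 4; limma, adjusted p = 0.0389), and Sil1, the exchange factor of BiP, fell by 0.27 (SD 0.091; limma, adjusted p = 0.0342).

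Of 16 further ERAD genes measured, 3 rose and 1 fell, with a median of 0.020. Vimp (now Selenos), which encodes a selenoprotein that binds the ATPase p97 to the ER membrane, had ratios of 0.72, 0.49, 0.48 and 0.79 and rose by 0.62 ± 0.15 (SD, n = 4; limma, adjusted p = 0.0207). Faf2, another p97 adaptor of the ER membrane, rose by 0.38 ± 0.088 (SD, n = 4; limma, adjusted p = 0.0212), and Edem3 rose by 0.20 ± 0.044. The gene that fell was Ufd1l, a p97 cofactor, with a log2 ratio of -0.20 ± 0.072 (SD, n = 4; limma, adjusted p = 0.0403). Each of these 4 genes had the same sign in all 4 pairs.

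Of 27 further ATF4 targets, 1 rose and 1 fell, with a median of -0.050. Slc7a1, a transporter of cationic amino acids, rose by 0.21 ± 0.17 (SD, n = 4; limma, adjusted p = 0.0364). Ddit4 encodes REDD1, an inhibitor of mTORC1 that also answers to glucocorticoids and low oxygen, and its ratios were -0.39, -0.42, -0.25 and -0.56, a fall of 0.41 on average (SD 0.13, n = 4; limma, adjusted p = 0.0203). Of 16 genes for eIF2 kinases, eIF2 and its exchange factor, 0 rose and 1 fell, namely Gcn1l1 (now Gcn1), the activator of GCN2, with a log2 ratio of -0.27 ± 0.11 (SD, n = 4; limma, adjusted p = 0.0499).

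Of 10 further cytosolic tRNA synthetases and partners measured, 1 rose and 1 fell, both of them genes of scaffold proteins of the multi-synthetase complex. Eef1e1 had a log2 ratio of 0.20 ± 0.052 (SD, n = 4; limma, adjusted p = 0.0442) and Aimp1 of -0.28 ± 0.17 (SD, n = 4; limma, adjusted p = 0.0402). Of 16 mitochondrial tRNA synthetases measured, Iars2 rose by 0.29 ± 0.13, Sars2 fell by 0.41 (SD 0.16, n = 4; limma, adjusted p = 0.0429) and Lars2 fell by 0.16 (SD 0.058). The median log2 ratio was 0.0048 in the mitochondrial list and 0.013 in the list of further cytosolic genes, beside 0.086 for the 12 cytosolic members.

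Among 11 genes of serine and glycine use, 2 rose and 0 fell. Gldc encodes the decarboxylase of the mitochondrial glycine cleavage system, and its ratios of 0.68, 0.29, 0.51 and 0.49 gave a rise of 0.49 ± 0.16 (SD, n = 4; limma, adjusted p = 0.0203). Srr encodes serine racemase, which makes D-serine, and it rose by 0.31 ± 0.19 (SD, n = 4; limma, adjusted p = 0.0305). The other 9 genes did not pass, and the median of the list was 0.0025. Proximal tubule markers stood lower on the low diet in the same samples, as given above, and their part in the ratios of these genes was not tested.

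**Figure D4:**
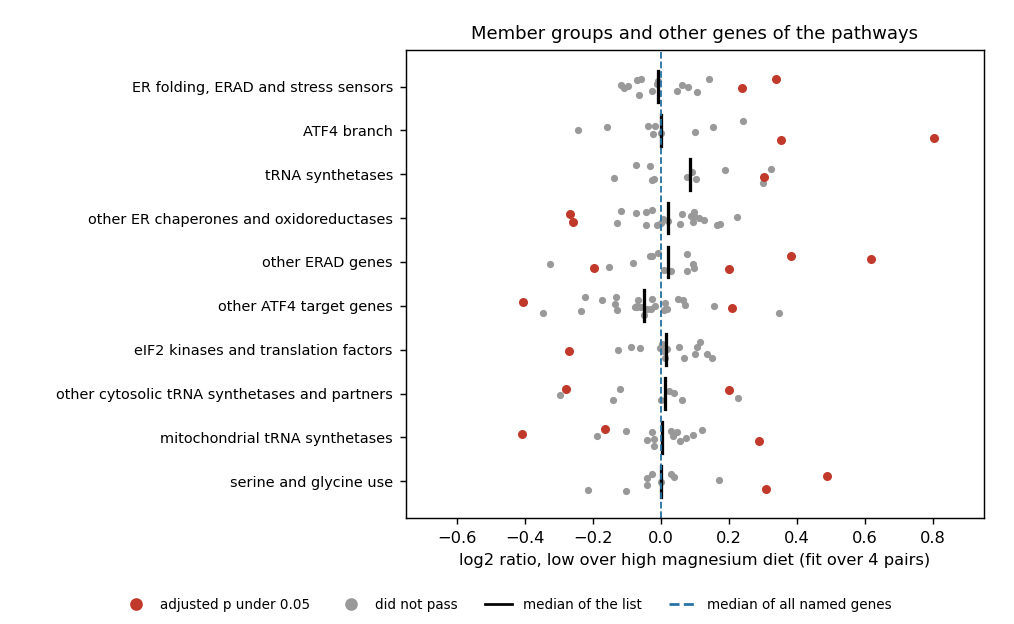
Log2 ratio of low over high magnesium diet from the fit over 4 pairs (x axis) for the 3 member groups and 7 lists of other pathway genes (y axis); red points passed at an adjusted p under 0.05, grey points did not, black bars are list medians and the dashed line is the median of all named genes at 0.0017. The list medians lie between -0.050 and 0.086, and outside the 3 member groups called genes occur on both sides of 0, though not within every list.

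Of the 5 calls, that of Psph held without H3/L2, and no other call held with any pair left out. Without H1/L1, without H7/L7 or without H8/L8, 0 of the 39 members passed in limma, and the share of all named genes called fell to 0.318%, 1.53% and 0.806%. Without H3/L2, Psph and Sars passed, with log2 ratios of 0.89 and 0.72, and 2.83% of all named genes were called. The sizes moved less than the calls. The log2 ratio of Psph stayed between 0.72 and 0.89 with 1 pair left out (adjusted p between 0.0311 and 0.0537), that of Asns between 0.31 and 0.39, that of Canx between 0.27 and 0.41, that of Xbp1 between 0.21 and 0.26 and that of Tars between 0.25 and 0.36. Each such fit has 1 residual degree of freedom per probe. The pair left alone in its dye orientation is fitted exactly, so the p-values rest on the spread between the remaining pairs. Without H3/L2 the pair left alone was H8/L8, where Sars stood at 1.54, so the spread behind its p-value leaves that value out. The same holds for Psph in that fit.

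The number of members called also moved with the processing, along with the share of all named genes. It was 1 without the dye term (3% of all named genes) and 1 with plain background subtraction (0.87%), in both cases Psph. It was 5 with median centring (8.29%), where Sesn2 passed as lower and Xbp1 did not pass. It was 5 with saturated spots set to missing (7.85%) and 5 when all probes of a gene were averaged (5.48%). Without background correction it was 6 (10.4%), in the authors' processed ratios 6 (10.5%) and with the dimmest 50% of probes left out 6 of 36 (14.5%). Over all probes, named or not, 5.82% were called. Psph was the only member called in each of these 8 settings. The log2 ratio of Asns was 0.58 with plain background subtraction and 0.44 without background correction, and that of Psph 0.98 and 0.89. With plain background subtraction, Canx, Xbp1 and Tars moved less, to 0.37, 0.26 and 0.32.

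**Figure D5:**
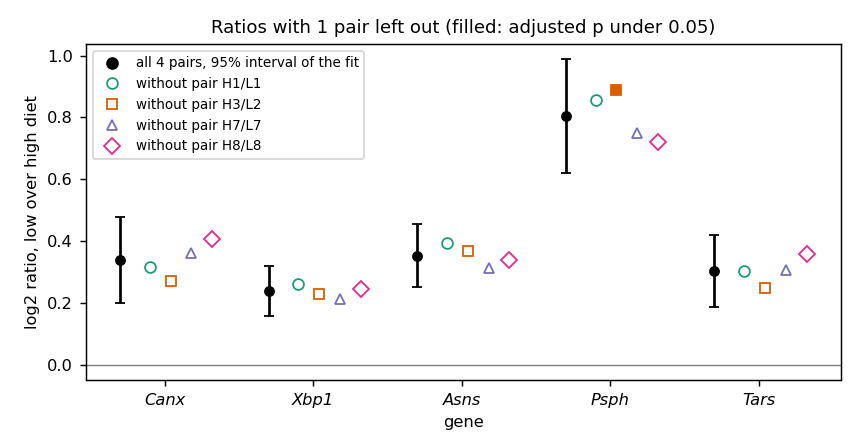
Log2 ratio of low over high magnesium diet (y axis) of the 5 members that passed (x axis), from all 4 pairs with the 95% interval of the fit (black) and with each pair left out in turn (coloured symbols, filled where the adjusted p stayed under 0.05). Of these estimates the only filled one is Psph without H3/L2, at 0.89, and the ratio of each gene stays above 0.2.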

How the data were processed

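RNA of sorted tubules was measured on 4 two-colour mouse arrays with 45220 spots each. Per the file headers, the deposited scans hold mean and median pixel intensity of signal and local background per spot and channel, with no background subtracted. No source used here names the scanner. Channel 1 was taken as Cy5, as the labels list it. The authors also deposited processed log2 ratios of channel 1 over channel 2, with column medians of 0.0048 (H1/L1), 0.0043 (H8/L8), -0.0012 (H3/L2) and -0.0040 (H7/L7). It correlated at 0.711 to 0.847 with the ratios of the scans across brighter spots, and how it was normalized stays unknown. The authors' deposited results, made with maanova per the file headers, give a mean log2 ratio of high over low diet and a p-value per probe, with no statement of its adjustment.

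From the scans, normexp background correction (offset 50) and loess within each array (5791 control spots at weight 0) gave log2 ratios, turned to low over high diet. They were fitted with limma 3.58.1 in R 4.3.3 with a diet and a dye term, moderated by eBayes (2 residual and 2.68 prior degrees of freedom), 2-sided, and adjusted over 39429 probes at 0.05. Intervals are those of this fit, and the SD is that of the 4 ratios, dye effect included. Over all probes, the ratios correlated at 0.63 and 0.53 between pairs of the same dye orientation. Between pairs of opposite orientation they correlated at 0.064 to 0.32. The dye term had an unadjusted p under 0.05 in limma for 6618 probes, and 2 passed after adjustment. A dye effect and a difference between the littermate pairs of either orientation cannot be told apart. Each array is a littermate pair, so the fit is paired by construction. Of the probes, 32431 carried 1 gene symbol and 6998 none here, and 2622 old symbols were updated through RefSeq synonyms. A channel was above background when its signal minus background was over the 99th percentile of 604 spots of a dim control. The number of arrays limits the precision. The fit was tested on simulated data. The members, gene lists, tests and alternatives were chosen with earlier results of these data known. Values in every pair are given for members past the threshold, for Atf4, Ddit3, Xbp1, Asns and Calr, and for members whose probes differ in call or sign. Other members were added after their values were seen, and from other lists Hspa5 and up to 3 called genes were named, with Ufd1l as an addition after its value was seen.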

Additional observations from a re-analysis of the deposited data

Results flagged for a closer look

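In 2 of the 39 members, 1 pair lay far from the other pairs by Dixon's test at the 95% level, which flags about 1 in 20 groups by chance. For Sars the log2 ratio was 1.54 in H8/L8, against -0.18 to -0.026 in the other pairs. For Aars it was 0.25 in H3/L2, against -0.14 to -0.078.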

How the results depend on the processing

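The signs of the 5 called members held under every alternative run, and their calls did not. Without the dye term 824 probes were called instead of 2296, and with plain background subtraction 279, of which 204 were higher (1371 of the 2296). In both of these, 0 ER members, 1 member of the ATF4 branch (Psph) and 0 tRNA synthetases passed. With median centring in place of loess 1 ER member passed, since Xbp1 did not (adjusted p = 0.0713). With the dimmest 50% of probes left out 2 tRNA synthetases passed, Tars and Nars. The median of the ATF4 branch was then 0.10, as the 2 dim members Ddit3 and Trib3 dropped out of it. With 1 pair left out, 83 to 863 probes were called, 0 ER members, 0 to 1 of the ATF4 branch and 0 to 1 of the tRNA synthetases, and the median of the ATF4 branch ranged from 0.0066 to 0.097. The cause of these changes was not tested. The other medians moved by less than the SD of their pair medians. With 1 pair left out, the log2 ratio changed sign for 12 members, none of them called with all pairs. It did so for Atf4 (0.15 without H1/L1, 0.0049 without H8/L8, in a range down to -0.22 without H7/L7), Ddit3 (0.0066 without H8/L8, down to -0.052 without H3/L2) and Aars (0.057 without H8/L8, down to -0.11 without H3/L2, and 0.0017 with median centring), and for Herpud1 (-0.11 to 0.21), Atf3 (-0.17 to 0.17), Syvn1 (-0.12 to 0.10), Lars (-0.11 to 0.054), Manf (-0.15 to 0.013), Eif2ak3 (-0.14 to 0.017), Trib3 (-0.057 to 0.025), Pdia3 (-0.12 to 0.0034) and Sars (-0.070 to 0.72). Without background correction, and in the authors' processed ratios, Phgdh also passed, at -0.19 and -0.20. No filter on low values was used in the values reported.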
